A study of Homo sapiens with 6 samples.

Results

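Messenger RNA of 9 genes of the epithelial tight junction was followed in HEC-1B, an endometrioid carcinoma cell line of human origin, by bulk RNA sequencing of 6 libraries. The genes were taken by symbol from the 23284 listed in each library: the claudins CLDN1, CLDN3, CLDN4, CLDN7 and CLDN12, occludin (OCLN), the junctional adhesion molecule A gene F11R, and the scaffold genes TJP1 and TJP3. All 9 were listed, and 8 passed a filter of at least 1 FPKM (fragments per kilobase of transcript, scaled to sequencing depth) in at least 2 libraries, which 12135 genes passed in all; CLDN3 did not.

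The libraries form 3 groups of 2, numbered v1 and v2 in their titles. All are HEC-1B cells graded by fluorescence-activated cell sorting for aldehyde dehydrogenase (ALDH), an enzyme used to mark stem-like tumour cells. The first group carries the label of a high ALDH potential together with an ALDH-high, accelerated state, and is called high-potential accelerated here. The second has the same ALDH-high accelerated label without the potential (plain accelerated), and the third is labelled as passing from ALDH-high to low (plain high-to-low). The series asks how expression goes with the presence or absence of an accelerated change from ALDH1A1-low to ALDH1A1-high cells. How the high-potential cells were derived is not given in the sources used here, so 1 selected subline and a property shared by such cells cannot be told apart. No source states that v1 and v2 came from separate cultures, so a p-value here weighs a difference against library-to-library spread that may be technical.

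Tight junctions seal the space between neighbouring epithelial cells and separate their apical from their basolateral membrane. Claudins form the strands of the seal and set which ions pass, occludin and junctional adhesion molecules join them in the membrane, and the zonula occludens proteins encoded by TJP1 and TJP3, among others, tie the strands to actin. Carcinoma cells that take on mesenchymal features often lose these proteins, and the repressors ZEB1 and SNAI1 bind E-box sequences in the promoters of several such genes.

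The promoters of OCLN and CLDN7, the members whose high-potential libraries both lay below every plain library, are shown beside that of CLDN4, the claudin that differed most between libraries. A lack of overlap between high-potential and plain libraries, in either direction, held for 32.8% of the 12135 genes that passed the filter. The sequences come from a RefSeq table on GRCh38.p14, which is not the build the authors used, and run 5′ to 3′ on the gene's strand from 250 bases before to 50 bases after a transcript start. Of the 9 genes, 8 had an entry in that table. Capitals mark the E-box CACCTG, or CAGGTG where it lies on the other strand. The windows are chr5:69492297-69492596 (plus strand) and chr5:69492540-69492839 (plus strand) for OCLN starts 1 and 2, which overlap, chr17:7262429-7262728 (minus strand) for CLDN7 start 2 and chr7:73830746-73831045 (plus strand) for CLDN4.
OCLN start 1: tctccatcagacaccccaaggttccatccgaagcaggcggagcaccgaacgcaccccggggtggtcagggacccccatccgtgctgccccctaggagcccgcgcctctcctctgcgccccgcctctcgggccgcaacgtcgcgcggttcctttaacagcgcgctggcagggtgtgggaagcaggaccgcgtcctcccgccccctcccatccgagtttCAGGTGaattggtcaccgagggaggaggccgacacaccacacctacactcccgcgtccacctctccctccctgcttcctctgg
OCLN start 2: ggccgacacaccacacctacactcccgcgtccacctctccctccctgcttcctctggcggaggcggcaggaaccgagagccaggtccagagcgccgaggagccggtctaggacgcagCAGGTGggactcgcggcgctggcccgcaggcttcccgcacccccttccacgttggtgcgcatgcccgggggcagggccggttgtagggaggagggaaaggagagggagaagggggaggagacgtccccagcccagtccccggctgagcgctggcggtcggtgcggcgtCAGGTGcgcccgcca
CLDN7 start 2: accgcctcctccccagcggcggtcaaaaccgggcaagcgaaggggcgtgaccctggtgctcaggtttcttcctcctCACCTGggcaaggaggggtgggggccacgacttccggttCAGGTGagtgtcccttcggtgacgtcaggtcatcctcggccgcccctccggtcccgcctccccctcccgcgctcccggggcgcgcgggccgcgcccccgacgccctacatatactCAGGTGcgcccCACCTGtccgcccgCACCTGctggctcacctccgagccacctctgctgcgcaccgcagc
CLDN4: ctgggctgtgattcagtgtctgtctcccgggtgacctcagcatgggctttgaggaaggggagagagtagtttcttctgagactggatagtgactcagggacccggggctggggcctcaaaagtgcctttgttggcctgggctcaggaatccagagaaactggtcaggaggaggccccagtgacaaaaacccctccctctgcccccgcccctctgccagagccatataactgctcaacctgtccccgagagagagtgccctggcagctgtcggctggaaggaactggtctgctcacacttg
CLDN7 start 2 held 5 matches and CLDN7 start 1, not shown, held 0; OCLN start 1 held 1, OCLN start 2 held 2, and CLDN4 held 0. An E-box was present in 6 of the members' 14 promoters, from 5 genes (CLDN3, CLDN7, OCLN, TJP1 and TJP3), and in 20.6% of 35116 promoters of the same length. The motif AACNNGTT of the epithelial Grainyhead-like factors, searched on both strands, was in 0 of the members' promoters and in 3.52% of that set. The comparison promoters were not matched to the members' for GC content. These matches describe letters in a window and do not show binding, and their part in the levels was not tested.

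The 6 libraries were alike in coverage: 14786 to 15386 genes had a value above 0, and relative depth, read from the steps between low values, lay between 0.807 and 1.07 with high-potential v1 at 1. They were less alike in composition. Small RNA genes held 9.99% (v1) and 18.7% (v2) of summed FPKM in high-potential libraries. The shares were 15.3% and 13.4% in plain accelerated and 14.3% and 9.10% in plain high-to-low libraries. ALDH1A1, the gene of the marker enzyme, had 352.5 and 303.6 FPKM in high-potential libraries, 26.7 (v1) and 316.9 (v2) in the plain accelerated libraries, and 28.4 and 9.45 in the plain high-to-low libraries. The mRNA of 1 ALDH gene is not the sorted trait itself. By this mRNA, the library labelled plain accelerated v1 went against its ALDH-high label and lay inside the high-to-low range. For OCLN, CLDN7, CLDN4, F11R and TJP3, high-potential minus plain is therefore also given without it. Most other values, the correlations among them, are given only with it. Of the epithelial markers, KRT18 (290.6 to 464.4 FPKM) and KRT8 were abundant, EPCAM was low, and CDH1, which encodes E-cadherin, never exceeded 0.0868 FPKM. Summed markers of other cells were low for endothelium (0.117 to 1.07 FPKM), leukocytes (0.960 to 2.60) and neurons (0.270 to 1.24). The summed fibroblast markers (8.46 to 314.3 FPKM) came almost wholly from THY1, with 3 to 5 of the 7 listed at 0 in each library. THY1 was 154.5 and 108.5 FPKM in high-potential, 297.1 and 8.04 in plain accelerated and 313.9 and 272.5 in plain high-to-low libraries. Its part in the results was not tested.

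Per transcript length, CLDN1 was by far the most abundant member (mean of 202.9 FPKM over 6 libraries), followed by CLDN12 (31.6), TJP1 (21.5), CLDN4 (21.3), CLDN7 (11.1), F11R (9.91), OCLN (7.75), TJP3 (4.82) and CLDN3 (0.277). Neighbours from CLDN12 to TJP3 overlapped in their ranges over the libraries. CLDN1 overlapped with none, since its lowest value (170.1 FPKM) was above the highest of CLDN4 (52.5 FPKM). In bulk RNA, fewer cells that express a gene and less RNA per cell cannot be told apart.

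**Figure D1:**
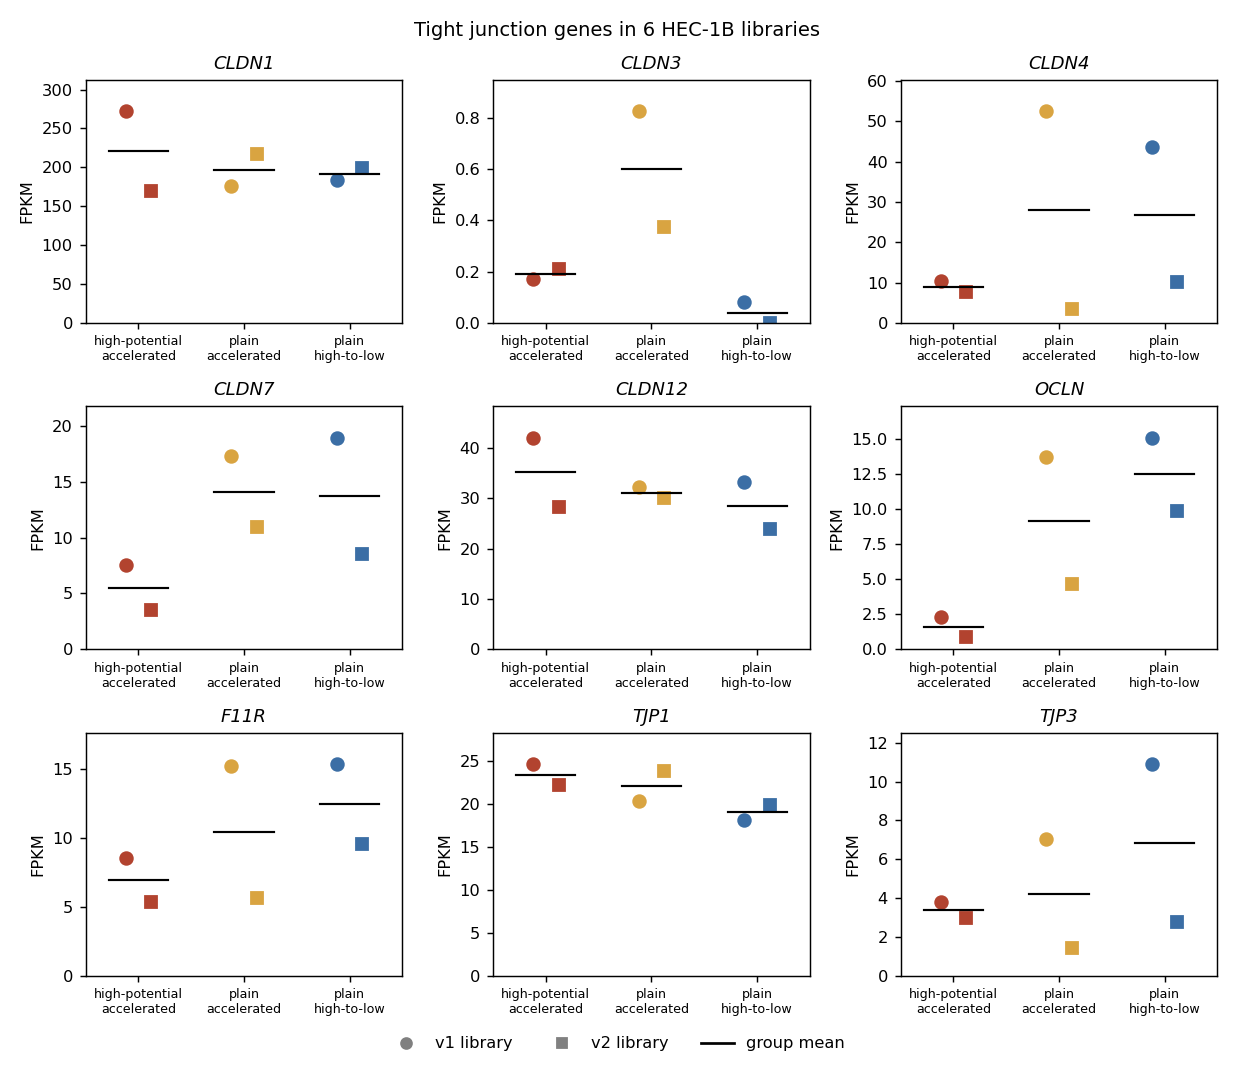
FPKM of the 9 tight junction genes (vertical axis, linear from 0, 1 scale per gene) in the high-potential accelerated, plain accelerated and plain high-to-low groups. Each point is 1 library (circle v1, square v2) and each line a group mean of 2; OCLN and CLDN7 have both high-potential points below the 4 plain points, while CLDN1, CLDN12 and TJP1 stay within a narrow range.

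OCLN, which encodes the membrane protein occludin, had the lowest relative level in high-potential cells of the 9 genes. OCLN reached 2.33 and 0.845 FPKM in high-potential, 13.7 and 4.65 in plain accelerated and 15.1 and 9.88 in plain high-to-low libraries. Both high-potential libraries lay below all 4 plain ones, and the high-potential mean of 1.59 ± 1.05 FPKM (SD, n = 2) was 0.147 of the plain mean of 10.8 ± 4.67 (SD, n = 4). In log2(FPKM + 1) units, in which the added 1 shrinks differences of low genes, high-potential minus plain was -2.15 (SE 0.452, 95% interval -3.24 to -1.05). The adjusted p of 0.0675 (limma with Benjamini-Hochberg adjustment over 12135 genes) missed the threshold of 0.05. A two-sided exact permutation test gave p = 0.0667, the lowest value possible with 2 against 4 libraries.

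The OCLN difference was -1.88 (SE 0.522, adjusted p = 0.188) against plain accelerated cells and -2.41 (SE 0.522, adjusted p = 0.0945) against high-to-low cells, in the same limma fit. Between the mean of both accelerated groups and the high-to-low group it was -1.48 (SE 0.452, adjusted p = 0.469), and plain accelerated minus high-to-low was -0.54 (95% interval -1.80 to 0.73). These comparisons share libraries and do not support each other. Without the library labelled plain accelerated v1, high-potential minus plain was -1.80 (adjusted p = 0.0900), and high-potential minus plain accelerated was -1.19 (adjusted p = 0.402). Without plain accelerated v2, high-potential minus plain was -2.49 and passed the threshold (adjusted p = 0.0442). Each library's own name holds a number, which starts with other digits in high-potential v2 and plain accelerated v2 than in the remaining 4 libraries; no source says what it stands for. High-potential minus plain was -1.61 for OCLN between those 2 libraries and -2.04 among the remaining 4, each with 1 high-potential library. A pseudogene copy of OCLN lies on the same chromosome, so how fragments were shared between them is uncertain.

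CLDN7, a claudin of simple epithelia that also occurs along the basolateral membrane, was also lowest in high-potential cells. It was 7.51 and 3.47 FPKM in high-potential, 17.3 and 10.9 in plain accelerated and 18.9 and 8.51 in plain high-to-low libraries. Both high-potential libraries were below all 4 plain ones, but high-potential v1 (7.51 FPKM) lay close to plain high-to-low v2 (8.51 FPKM). High-potential minus plain was -1.21 (SE 0.409, 95% interval -2.20 to -0.22), with a limma adjusted p of 0.176 and an exact permutation p of 0.133. It was -1.26 (adjusted p = 0.304) against plain accelerated and -1.16 (adjusted p = 0.268) against high-to-low cells. Without the library labelled plain accelerated v1, high-potential minus plain was -1.05 and high-potential minus plain accelerated -0.95. High-potential v2 minus plain accelerated v2 was -1.41, and among the other 4 libraries high-potential minus plain was -0.83. In the GRCh38 annotation, exons of CLDN7 overlap ELP5 on the opposite strand, and this library kit is not stranded. Fragments from the shared stretches cannot be assigned to either gene by strand. Exons of CLDN7 also overlap another protein-coding gene on the same strand, so its level is uncertain.

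CLDN4, a claudin whose loss or gain is often described in carcinomas and a receptor of Clostridium perfringens enterotoxin, split by library rather than by group. It was 10.4 and 7.60 FPKM in high-potential, 52.5 and 3.47 in plain accelerated and 43.6 and 10.1 in plain high-to-low libraries. The v1 libraries of both plain groups were high, and the other 4 lay between 3.47 and 10.4 FPKM. The highest and lowest libraries of CLDN4 carry the same group label and differed 15.1-fold. High-potential minus plain was -0.90 with a 95% interval of -3.37 to 1.56 (limma adjusted p = 0.677, exact permutation p = 0.533). Without the library labelled plain accelerated v1 it was -0.01, and without plain accelerated v2 it was -1.80. By the number in the library names the direction did not hold: high-potential v2 minus plain accelerated v2 was 0.95, and among the other 4 libraries high-potential minus plain was -1.39.

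CLDN1, a strand-forming claudin of skin and many other epithelia, was 271.8 and 170.1 FPKM in high-potential, 176.3 and 216.8 in plain accelerated and 183.5 and 198.8 in plain high-to-low libraries. The high-potential libraries were both the highest and the lowest of the 6, so the groups overlapped throughout. High-potential minus plain was 0.15 (SE 0.235, 95% interval -0.41 to 0.72, limma adjusted p = 0.770). Its mean was above that of 96.7% of the genes that passed the filter.

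CLDN12, an atypical claudin that lacks the usual binding motif for zonula occludens proteins, was 42.0 and 28.3 FPKM in high-potential, 32.3 and 30.0 in plain accelerated and 33.2 and 23.9 in plain high-to-low libraries. The groups overlapped, and high-potential minus plain was 0.21 (SE 0.228, 95% interval -0.34 to 0.76, limma adjusted p = 0.659). Exons of CLDN12 overlap GTPBP10 and CDK14 on the same strand in the GRCh38 annotation, so its level is uncertain.

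CLDN3, another strand-forming claudin and enterotoxin receptor, was at the edge of detection. It was 0.171 and 0.211 FPKM in high-potential, 0.825 and 0.375 in plain accelerated and 0.0794 and 0 in plain high-to-low libraries. Scaled by depth, these values fell within 0.0028 of 2, 2, 9, 4, 1 and 0 multiples of the lowest value above 0. The CLDN3 values therefore rest on very few fragments. In a fit with no filter on low values (17184 genes) the log2 difference was -0.41 for high-potential minus plain accelerated (limma adjusted p = 0.338) and 0.20 for high-potential minus high-to-low (adjusted p = 0.578). For plain accelerated minus high-to-low it was 0.61 (SE 0.145, adjusted p = 1), and for both accelerated groups minus high-to-low 0.40 (SE 0.126, adjusted p = 0.527). None of the CLDN3 differences passed the threshold.

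F11R, whose protein JAM-A is an immunoglobulin-like adhesion molecule of the junction, was 8.49 and 5.31 FPKM in high-potential, 15.2 and 5.64 in plain accelerated and 15.3 and 9.57 in plain high-to-low libraries. High-potential and high-to-low libraries did not overlap, with a difference of -0.76 (SE 0.473, 95% interval -1.91 to 0.38, limma adjusted p = 0.451). Plain accelerated v2 lay inside the high-potential range, and high-potential minus plain was -0.59 (SE 0.410, adjusted p = 0.483). Without the library labelled plain accelerated v1 the last difference was -0.27, and without plain accelerated v2 it was -0.91. Exons of F11R overlap another protein-coding gene on the same strand in the GRCh38 annotation, so its level is uncertain.

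TJP1, which encodes the scaffold ZO-1, varied least among the members, by 1.36-fold from lowest to highest library. It was 24.6 and 22.2 FPKM in high-potential, 20.4 and 23.8 in plain accelerated and 18.1 and 19.9 in plain high-to-low libraries. All 4 accelerated libraries were above both high-to-low libraries, by small steps. High-potential minus high-to-low was 0.29 (SE 0.188, limma adjusted p = 0.479), and plain accelerated minus high-to-low was 0.20 (95% interval -0.25 to 0.66). High-potential minus plain was 0.18 (SE 0.163, adjusted p = 0.585 in limma).

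TJP3, which encodes the related scaffold ZO-3, was 3.81 and 2.98 FPKM in high-potential, 7.04 and 1.43 in plain accelerated and 10.9 and 2.75 in plain high-to-low libraries. As for CLDN4, the v1 libraries of both plain groups were highest. High-potential minus plain was -0.31 with a 95% interval of -1.80 to 1.17 (limma adjusted p = 0.827), and its sign turned when either of these v1 libraries was left out (0.12 and 0.10).

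**Figure D2:**
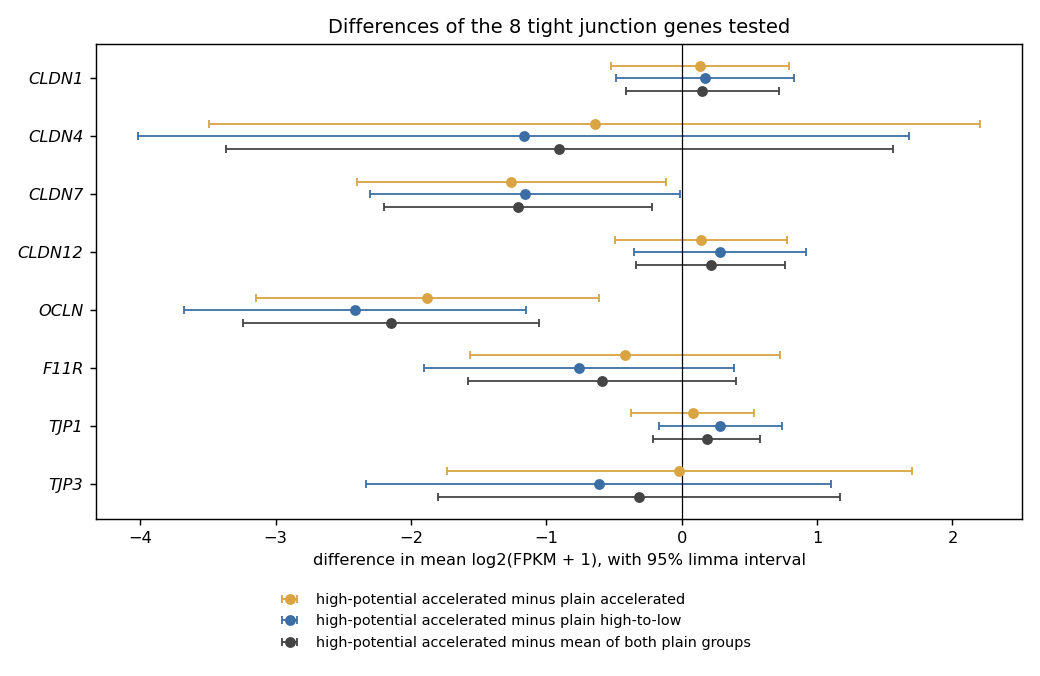
Differences in mean log2(FPKM + 1) of the 8 members tested (horizontal axis) with 95% limma intervals, for high-potential accelerated cells minus each plain group and minus their mean. The OCLN and CLDN7 intervals lie below 0 in all 3 comparisons before adjustment for 12135 genes, and those of the other 6 genes include 0.

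No member passed the adjusted threshold in any of the 5 comparisons in the limma fit with no term for the v1 and v2 numbers, which no label says pair the libraries. Between high-potential and plain accelerated cells, 0 of 8 members were called, against 0.494% of all genes tested. An unadjusted p under 0.05 was found for 2 members and for 1738 of all 12135 genes tested. Between high-potential and high-to-low cells, 0 were called against 0.799% of all genes, with 2 members and 2233 of all genes at an unadjusted p under 0.05. Between plain accelerated and high-to-low cells, 0 were called against 0.0165%, with 0 members and 118 of all genes at an unadjusted p under 0.05. For high-potential against both plain groups, 0 were called against 2.3%, with 2 members and 2418 of all genes at an unadjusted p under 0.05. For both accelerated groups against high-to-low, 0 were called against 0.0659%, with 1 member and 1122 of all genes at an unadjusted p under 0.05.

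Libraries of high-potential and plain accelerated cells did not overlap for 2 of 8 members (OCLN and CLDN7, lower), against 43.4% of all genes tested. Between high-potential and high-to-low cells this held for 4 (CLDN7, OCLN and F11R lower, TJP1 higher), against 51.1% of all genes. Between plain accelerated and high-to-low cells it held for 1 (TJP1, higher), against 24.1%. Between high-potential cells and both plain groups it held for 2 (OCLN and CLDN7, lower), against 32.8%. Between both accelerated groups and high-to-low cells it held for 1 (TJP1, higher), against 13%. These shares are near or below those of all genes, so the lack of overlap is not a result about these members. In the comparison of high-potential with both plain groups, 5 of the 8 members were lower and 3 higher; their median log2 difference was -0.45, beside 0.000946 over all genes tested. That median was 0.04 without the library labelled plain accelerated v1 and -0.83 without plain accelerated v2. In this fit its direction thus rests on that v1 library. With a term for the v1 and v2 numbers added, the median was -0.218 without plain accelerated v1.

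Within each group, many members were higher in v1 than in v2. The log2 value of v1 minus v2 was positive in all 3 groups for 6 of the 8 members tested (CLDN4, CLDN7, CLDN12, OCLN, F11R and TJP3), and this held for 24.5% of all genes tested. CLDN4 gave the greatest gaps in both plain groups, 3.58 in plain accelerated and 2 in plain high-to-low cells, but only 0.41 in high-potential cells. There CLDN7 gave the greatest gap (0.93). OCLN gave 0.85 in high-potential, 1.38 in plain accelerated and 0.56 in plain high-to-low cells. CLDN1 and TJP1 were higher in v1 only in the high-potential group. Relative depth of v1 and v2 was 1 and 0.807 in high-potential, 0.930 and 0.909 in plain accelerated and 1.07 and 0.935 in plain high-to-low cells, and its part in these gaps was not tested.

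**Figure D3:**
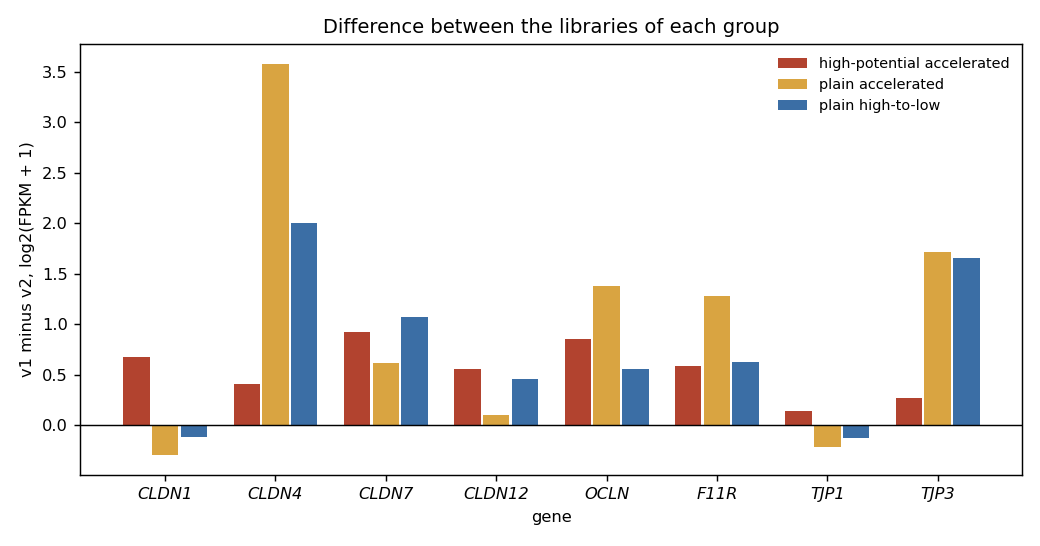
Log2(FPKM + 1) of library v1 minus library v2 of the same group (vertical axis) for the 8 members tested, with 1 bar per group. Bars of CLDN4, CLDN7, CLDN12, OCLN, F11R and TJP3 are above 0 in all 3 groups, and the greatest, 3.58, is that of CLDN4 in plain accelerated cells.

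Members that varied most shared their highest libraries but not their lowest. For CLDN4, CLDN7, OCLN, F11R and TJP3 the highest 2 libraries were the v1 libraries of the plain accelerated and the plain high-to-low group. Over the 6 libraries, in each of which all genes share 1 preparation and its depth, Pearson's r of log2(FPKM + 1) was 0.95 for CLDN4 with TJP3 (Spearman's rho 0.89) and 0.91 for CLDN7 with OCLN (rho 0.94), but 0.58 for OCLN with TJP3 (rho 0.54) and 0.61 for CLDN7 with TJP3 (rho 0.49). The lowest library was high-potential v2 for OCLN and plain accelerated v2 for CLDN4 and TJP3. TJP1 ran the other way, with r of -0.76 to OCLN (rho -0.77). These values describe 6 libraries and carry no test.

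Among 10096 genes with a mean of at least 3 FPKM, those most like each varying member over the 6 libraries were listed by Pearson's r. For OCLN they were UGT8, TUBGCP2 and IMPA2, with r from 0.999 to 0.996, and 625 genes exceeded 0.9. UGT8 was 9.13 and 3.97 FPKM in high-potential, 55.3 and 16.7 in plain accelerated and 58.3 and 33.7 in plain high-to-low libraries. For CLDN7 they were RTDR1, LURAP1L and RPL3 (r from 0.997 to 0.996, 415 genes above 0.9), and for CLDN4 they were GRAMD3, KIAA0556 and DNAJB1 (r from 0.995 to 0.994, 240 genes above 0.9). For F11R they were ZFP36L2, SMYD3 and RHOB (371 genes above 0.9), and for TJP3 DNAJC16, PIGC and KCNK1 (145 genes above 0.9). With 6 libraries, so many genes reach such values that the likeness singles out none of them.

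Other components of the junction gave no calls in any comparison. Of 18 other claudins, 4 were tested. CLDN16, known from ion reabsorption in the kidney, was the most abundant of them at 56.4 and 45.4 FPKM in high-potential, 38.7 and 26.2 in plain accelerated and 42.7 and 64.1 in plain high-to-low libraries. CLDN2, a pore-forming claudin, is listed at 0 in high-potential v1 and v2, and was 4.58 and 0.0737 FPKM in plain accelerated and 3.43 and 0.788 in plain high-to-low libraries. CLDN23 lay between 3.74 and 8.39 FPKM and CLDN15 between 1.46 and 2.65 FPKM.

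Of 12 other membrane proteins of the junction 5 were tested, with 0 calls. Between high-potential and plain cells 3 of them had an unadjusted p under 0.05, as did 2418 of all 12135 genes tested. MARVELD2, which encodes tricellulin of the corners where cells meet, was 1.57 and 0.866 FPKM in high-potential, 2.96 and 4.80 in plain accelerated and 4.34 and 3.09 in plain high-to-low libraries. Both high-potential libraries were below the plain ones (difference -1.11 in log2 units, SE 0.269, adjusted p = 0.0910 in limma). A lack of overlap between these groups, in either direction, held for 32.8% of all genes tested. EPCAM, which encodes an epithelial adhesion molecule that binds claudin-7, was 3.49 and 2.16 FPKM in high-potential, 5.82 and 4.44 in plain accelerated and 6.17 and 10.6 in plain high-to-low libraries (-0.98, SE 0.283, limma adjusted p = 0.132). CXADR, which encodes the coxsackievirus and adenovirus receptor, was 27.6 and 41.8 FPKM in high-potential, 23.9 and 19.0 in plain accelerated and 23.98 and 24.4 in plain high-to-low libraries (0.56, SE 0.217, limma adjusted p = 0.224). LSR, which encodes angulin-1 of the same corners, lay between 44.3 and 62.96 FPKM, and CRB3, a polarity protein, between 15.02 and 21.7 FPKM. JAM3 stayed at or below 0.614 FPKM in every library.

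Of 20 other plaque and polarity proteins 18 were tested, and 0 were called. Between high-potential and plain cells 5 of them had an unadjusted p under 0.05, as did 2418 of all 12135 genes tested. PARD6B, a polarity subunit, again had its highest values in the v1 libraries of the plain groups, with 97.0 and 75.5 FPKM in high-potential, 155.6 and 69.1 in plain accelerated and 156.3 and 66.5 in plain high-to-low libraries. The other most abundant genes of the list were CSDA (97.8 to 139.6 FPKM over the 6 libraries), the polarity scaffold PARD3 (78.2 to 102.4) and AMOTL2 (48.6 to 117.0), an angiomotin-like protein.

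Of 10 adherens junction genes 8 were tested, and 0 were called. Between high-potential and plain cells 3 of them had an unadjusted p under 0.05, as did 2418 of all 12135 genes tested. PVRL2, a nectin, was 116.8 and 118.7 FPKM in high-potential, 61.4 and 61.6 in plain accelerated and 67.8 and 46.6 in plain high-to-low libraries (0.99, SE 0.192, limma adjusted p = 0.0582). CTNNB1, which encodes beta-catenin, was 185.2 and 200.4 FPKM in high-potential, 271.4 and 324.5 in plain accelerated and 281.7 and 311.6 in plain high-to-low libraries (-0.62, SE 0.171, limma adjusted p = 0.121). Both PVRL2 and CTNNB1 kept the high-potential libraries apart from the 4 plain ones, in opposite directions. Such a lack of overlap, in either direction, held for 32.8% of all genes tested. JUP, which encodes plakoglobin, lay between 63.9 and 252.1 FPKM and CTNNA1, which encodes alpha-catenin, between 111.3 and 134.3 FPKM. CDH1 was 0.0197 and 0.0245 FPKM in high-potential, 0.0424 and 0.0868 in plain accelerated and 0 and 0.0211 in plain high-to-low libraries, at the edge of detection.

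**Figure D4:**
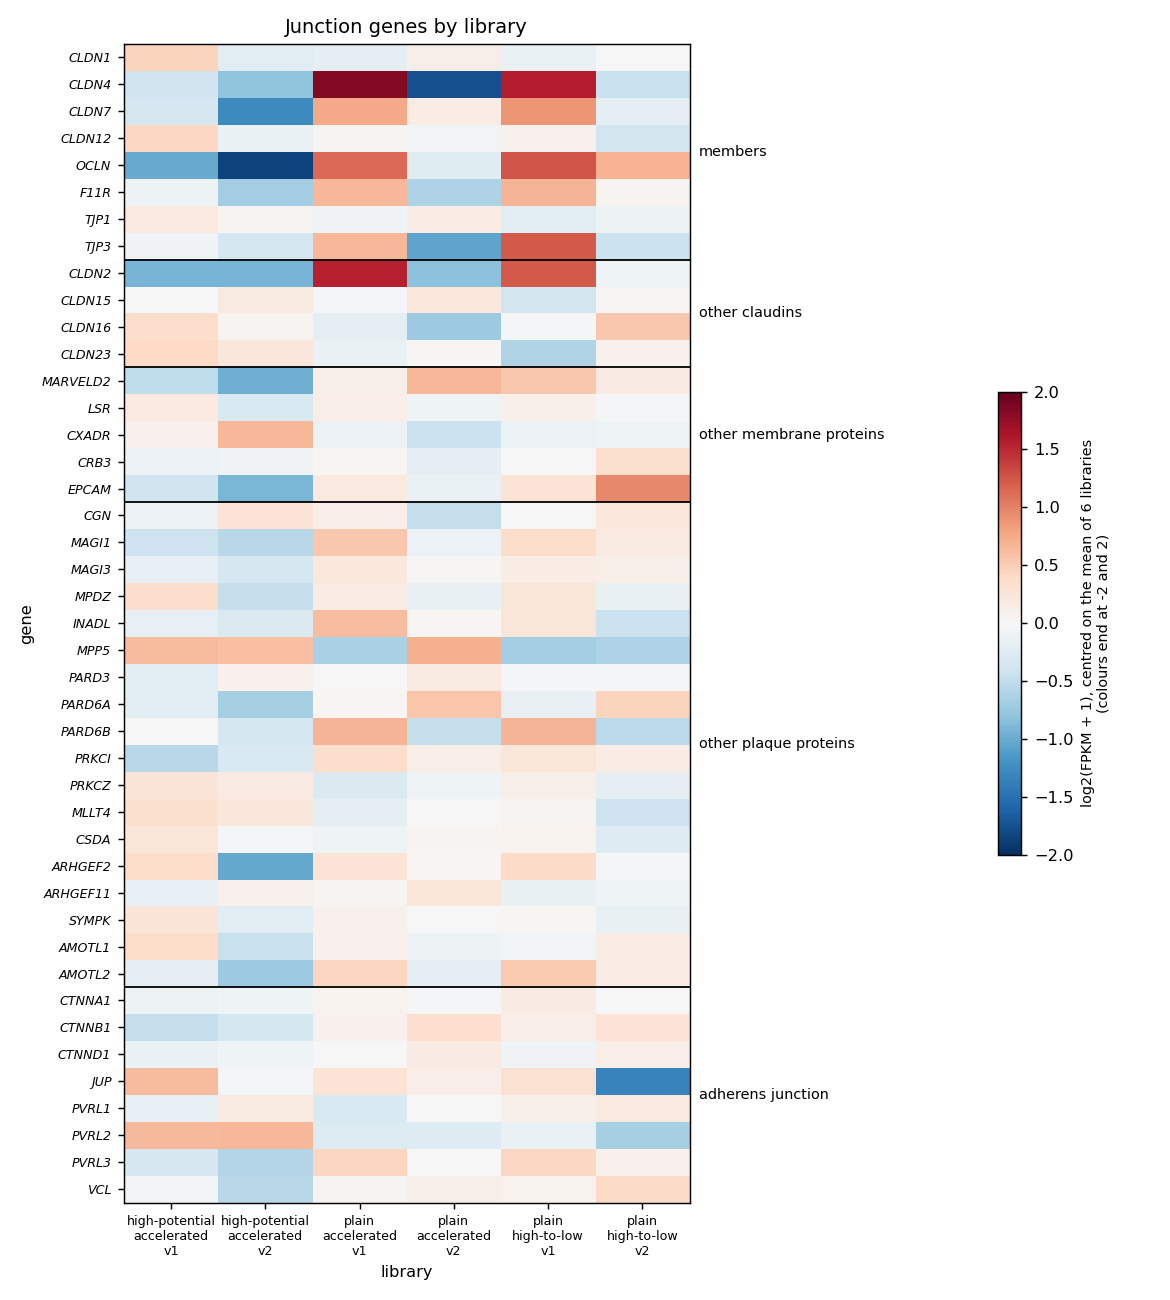
Log2(FPKM + 1) of 43 junction genes that passed the filter (rows, by list) in the 6 libraries (columns), centred on each gene's mean; red is above and blue below that mean, with colours ending at -2 and 2. In both high-potential columns OCLN, MARVELD2 and EPCAM are among the blue rows, and PVRL2, CXADR and CLDN23 are among the red. CLDN4, CLDN2, TJP3 and PARD6B are reddest in the v1 columns of the plain groups.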

How the data were processed

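Values deposited by the authors were FPKM, listed per gene symbol in a table for each library. The submitters' processing notes name TopHat2 2.0.13, Cuffnorm 2.2.1 and the hg19 build; annotation and scaling: not given in the sources used here. Per the labels' protocols, RNA was extracted with miRNeasy, cDNA made with SMART-Seq v4 and libraries with Nextera.

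A gene was kept if 2 or more libraries reached 1 FPKM. All 6 libraries entered a single limma fit (version 3.58.1, R 4.3.3) on log2(FPKM + 1) with a variance trend and 3 residual degrees of freedom, for 5 comparisons. A call was a two-sided p under 0.05 after Benjamini-Hochberg adjustment over all genes. The step was tested on simulated data. Exact permutation tests compared 2 high-potential with 4 plain libraries. FPKM carries no counts, so absolute depth is unknown.

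The members and lists were chosen with earlier results of these data known. All members are described; of other listed genes, those called are named, otherwise up to 4 of highest mean FPKM per list, plus EPCAM, CDH1, CXADR, MARVELD2, JAM3 and GRHL2. A listed gene is not reported here. In 17 alternative settings the scaling, filter, pseudocount, variance model, groups fitted, replicate block, library name number or a left-out library differed; 8 more, all with the replicate block, were added after seeing the data.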

Additional observations from a re-analysis of the deposited data

How the results depend on the processing

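The 5 counts of members called stayed at 0 under the settings run for scaling, filter, pseudocount, variance model and groups fitted. With values rescaled without small RNA genes, high-potential minus plain was -2.13 for OCLN and -1.19 for CLDN7. A term for the library name number gave 1 call in high-potential against plain (OCLN, limma adjusted p = 0.0316). With the replicate block, a term for v1 and v2, 2 members (OCLN and CLDN7, lower) were called in each of the 3 comparisons of high-potential cells: against plain accelerated (OCLN 0.0264, CLDN7 0.0345), high-to-low (0.0143 and 0.0299) and both (0.00851 and 0.0154). It also gave 2 in each with median ratio scaling and with quantile normalization. Against both plain groups PVRL2 (0.0211), CTNNB1 (0.0257), ELF3 (0.0403) and ESRP2 (0.0228) also passed with the block. It changed no other call among the differences whose test is printed, CLDN3 aside, which is below the filter. All genes called numbered 546, 944 and 1346 with the block, against 60, 97 and 279. Correlations of v1 minus v2 between groups over 12135 genes were 0.187, 0.158 and 0.281, but no label says that the numbers pair libraries, so this is only a hint. The cause was not tested.

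With 1 library left out, with or without the block, members called ranged from 0 to 1 against plain accelerated, 0 to 2 against high-to-low and 0 to 2 against both plain groups, and stayed at 0 in the other 2 comparisons. With the block, leaving out high-potential v1 or v2 ended both calls (OCLN against both plain groups, adjusted p = 0.0641 and 0.0780). Over all alternatives, OCLN against both plain groups had an adjusted p of 0.00851 to 0.411. Of the members, 4 turned sign in high-potential minus plain with a library left out and in no other fit, ranging from -0.29 to 0.59 for CLDN1, -2.10 to 0.29 for CLDN4, -0.0641 to 0.490 for CLDN12 and -1.02 to 0.40 for TJP3. Between high-potential v2 and plain accelerated v2 alone, the sign was also opposite for CLDN1 (-0.35), CLDN12 (-0.08), TJP1 (-0.10) and TJP3 (0.71), as for CLDN4. OCLN in plain accelerated minus high-to-low ranged from -1.23 to 0.154 over these fits and was 0.022 with the term for the library name number. The cause was not tested in either case. The step between single fragments limits CLDN3 and CDH1.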

Other observations

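Outside the junction itself, the epithelial marker KRT8, which encodes a keratin of simple epithelia, was lower in high-potential cells. It was 49.4 and 47.1 FPKM in high-potential, 96.9 and 104.1 in plain accelerated and 90.6 and 107.7 in plain high-to-low libraries, a log2 difference from both plain groups of -1.03 (SE 0.157, limma adjusted p = 0.0385). Of the 7 epithelial markers 5 were tested, and no other gene of any list examined was called in any comparison. Of all 12135 genes tested, 2.3% were called between high-potential and both plain groups, so a single call among the listed genes does not stand out. When any 1 of the 6 libraries was left out the KRT8 difference stayed between -1.09 and -0.97, with adjusted p from 0.0608 to 0.274, so the call was lost. With a term for v1 and v2 KRT8 was called (adjusted p = 0.0113), and then leaving out high-potential v1 or v2 ended the call (0.0554 and 0.0988). KRT7, another keratin, was 11.6 and 13.7 FPKM in high-potential, 4.97 and 1.27 in plain accelerated and 3.46 and 5.27 in plain high-to-low libraries, and did not pass (1.62, SE 0.403, limma adjusted p = 0.0960), but passed without the library labelled plain accelerated v1 (1.97, adjusted p = 0.0458). For KRT18 high-potential minus plain was -0.12 (SE 0.239, limma adjusted p = 0.836). KRT19 lay between 16.9 and 46.1 FPKM over the 6 libraries.

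Of 15 regulators of epithelial genes 9 were tested, and 0 were called. Between high-potential and plain cells 2 of them had an unadjusted p under 0.05, as did 2418 of all 12135 genes tested. ELF3, an epithelial ETS factor, was 17.4 and 30.4 FPKM in high-potential, 9.05 and 4.37 in plain accelerated and 7.70 and 3.22 in plain high-to-low libraries (limma adjusted p = 0.0788). ZEB1, a repressor of epithelial genes, was 12.2 and 11.1 FPKM in high-potential, 9.60 and 7.73 in plain accelerated and 10.5 and 7.27 in plain high-to-low libraries (adjusted p = 0.375). ESRP2, an epithelial splicing factor, was 2.98 and 4.50 FPKM in high-potential, 6.93 and 14.0 in plain accelerated and 5.77 and 10.5 in plain high-to-low libraries (adjusted p = 0.171). KLF5, a factor of epithelial progenitors, lay between 6.87 and 13.1 FPKM. GRHL2 is listed at 0 in every library.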
